A study of Mus musculus with 8 samples.

Results

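Immediate early response genes were followed in whole lungs of 4 wild-type and 4 Scgb3a2-transgenic mice. The 10 genes Fos, Fosb, Jun, Junb, Egr1, Egr2, Atf3, Ier2, Ier3 and Dusp1 were taken by symbol from the 20920 gene symbols of the annotated array matrix, and 12 probes carried these symbols. All mice were male C57BL/6 animals, labelled as 8 to 10 weeks old, and none had been treated. The transgenic mice came from 1 founder line in which the human surfactant protein C promoter, active in alveolar type II cells, drives mouse Scgb3a2, a secretoglobin secreted by airway epithelium. Each lung RNA was labelled with Cy5 and hybridized on an Agilent whole mouse genome array against a Cy3-labelled pool of equal amounts of all the RNAs. Every value below is therefore a log2 ratio of a lung over that pool, where 0 is the level of the pool. Dyes were not swapped, so a level above or below the pool cannot be told apart from a dye bias of the probe, whereas differences between lungs are free of a constant bias.

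Immediate early genes are transcribed within minutes of a growth factor, calcium or stress signal, without new protein synthesis. MAP kinases and the kinases they activate phosphorylate transcription factors that already sit on the promoters of these genes. Among them are CREB and the ternary complex partners of serum response factor. The short-lived products of the genes either regulate later genes or shut the kinases off again. In dissected tissue the same genes respond to handling, ischaemia and warming, and dissection of a lung is itself such a stimulus.

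The promoters were compared over a short stretch, the 150 bases before the transcription start, and motifs outside it were not searched. RefSeq windows of build GRCm38.p6 were found for 8 of the 10 genes, and not for Egr1 and Ier2. Fos and Dusp1 were chosen for display by their Pearson r of 0.68 over the lungs (exact permutation p = 0.067). Junb and Ier3 were chosen as the pair with the highest r, by the dimmer Junb probe, and Atf3 because it varied most. The 150 bases before the transcription start of these genes are shown 5′ to 3′. They lie at chr12:85473740-85473889 (plus strand) for Fos, chr8:84978749-84978898 (minus strand) for Junb, chr1:191183334-191183483 (minus strand) for Atf3, chr17:35821563-35821712 (plus strand) for Ier3 and chr17:26508473-26508622 (minus strand) for Dusp1. Capitals mark motifs found by their letters. These are the cAMP response element (TGACGTCA) and its core (TGACG), which may stand alone, on either strand. They are also the GC box (GGGCGG) and the CCAAT box, spelled as named, on either strand. The TATA box (TATAAA) was searched on the coding strand.
Fos: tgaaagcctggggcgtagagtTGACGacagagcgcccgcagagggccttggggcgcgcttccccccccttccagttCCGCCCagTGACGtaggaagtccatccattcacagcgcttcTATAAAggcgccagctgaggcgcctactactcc
Junb: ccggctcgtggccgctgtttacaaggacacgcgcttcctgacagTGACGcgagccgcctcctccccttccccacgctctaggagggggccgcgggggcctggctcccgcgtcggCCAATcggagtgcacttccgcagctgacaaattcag
Atf3: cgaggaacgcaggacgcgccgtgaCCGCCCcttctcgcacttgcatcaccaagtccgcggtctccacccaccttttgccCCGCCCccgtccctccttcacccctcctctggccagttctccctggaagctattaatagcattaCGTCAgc
Ier3: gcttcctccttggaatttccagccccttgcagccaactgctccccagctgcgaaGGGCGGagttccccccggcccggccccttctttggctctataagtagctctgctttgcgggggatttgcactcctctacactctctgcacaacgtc
Dusp1: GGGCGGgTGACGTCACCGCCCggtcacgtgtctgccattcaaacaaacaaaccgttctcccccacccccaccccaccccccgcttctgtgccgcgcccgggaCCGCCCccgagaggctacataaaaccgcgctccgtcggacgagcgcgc
The 8 genes have 12 such stretches, 5 of them at alternative starts of Egr2, and a gene was counted where any of its stretches held the motif. The Egr2 stretches that begin at bases 67537719, 67537720 and 67537780 overlap. Counts of stretches therefore include some Egr2 sites more than once, and the stretches are not independent. By stretches, the core was present in 8 of the 12 (6 of the 8 genes), against 13.3% of all 32851 mouse promoter stretches of this length. Fos carried it at -129 and -66, Junb at -106 and Atf3 at -7, counted from the start. The whole element, which contains a core on each strand, was found in Dusp1 at -143 and in 1.36% of all stretches. Fos was the 1 gene of the 8 with a TATA box in these letters, at -33, against 4.84% of all stretches. A CArG box, the binding motif of serum response factor, was found in 4 of the 5 stretches of Egr2, against 0.916% of all stretches. Of these, the overlapping stretches share the same CCATATATGG. No CArG box was found in the stretches of the other genes, and sites outside the 150 bases were not searched. A GC box was found in 8 of the 12 stretches, of 7 genes, against 28.6%. The GC boxes of Dusp1 at -150 and -135 flank its response element. Of the other motifs searched, a CCAAT box was found in 4 of the 12 stretches, those of Jun, Junb and 2 of Egr2, against 24.5% of all stretches, an EGR site (GCGNGGGCG, overlapping the GC box) in Fosb, against 3.81%, and an AP-1 site (TGANTCA) in none of the 12, against 4.24%.

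The arrays were read in 2 scan days, with 2 lungs of each genotype on each, and on 4 slides, with 1 lung of each genotype on each. The earlier day held wild-type and transgenic lungs 1 on slide 2 and wild-type 3 with transgenic 4 on slide 1. The later day held wild-type and transgenic lungs 2 on slide 3 and wild-type 4 with transgenic 3 on slide 4. Between 32271 and 34720 of 41174 probes were well above background in Cy5 on each array, and 1.72% to 6.46% of the spots were flagged. Scgb3a2 was higher in the transgenic lungs by 0.88 ± 0.24 (SE) on the log2 scale, although wild-type 3, at 0.58, lay above transgenic 2, at 0.47. The defining genes of type II cells (6 of 6), airway epithelium (5 of 5) and endothelium (6 of 6) were measured on these arrays.

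None of the immediate early genes differed between transgenic and wild-type lungs past the adjusted threshold of 0.05. All 10 were tested, each by its brightest probe. By limma, 0 of the 10 reached an unadjusted p of 0.05, against 2.09% (683) of the 32653 probes tested, and 0 of either had an adjusted p under 0.05. In 6 the transgenic mean was higher and in 4 it was lower, with a median difference of 0.01 on the log2 scale, against 0.00099 over all probes tested. The differences ran from -0.55 in Atf3 to 0.08 in Jun, with standard errors between 0.11 and 0.29. Junb, by its brighter probe, rested on 2 wild-type and 3 transgenic lungs. A p that misses the threshold does not show that the genotypes are alike. No member had genotypes that did not overlap, against 1.46% of 29502 probes with 8 values.

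The spread from lung to lung was wider than for most probes. The median SD over the 8 lungs was 0.23 for the members and 0.18 for all probes tested, and 8 of the 10 lay above the latter. Atf3 had an SD of 0.58, which 99.3% of the tested probes did not exceed. The brighter Junb probe, with values on 5 arrays, at 0.38 and Fos at 0.37 followed, at 96.3% and 96.1%. The other Junb probe, with 8 values, had an SD of 0.23, at 72.5%. Ier2 at 0.12 and Egr2 at 0.15 were among the steadier probes, at 18.1% and 38.1%. The group thus held probes from the steadier to the most variable of the array.

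**Figure D1:**
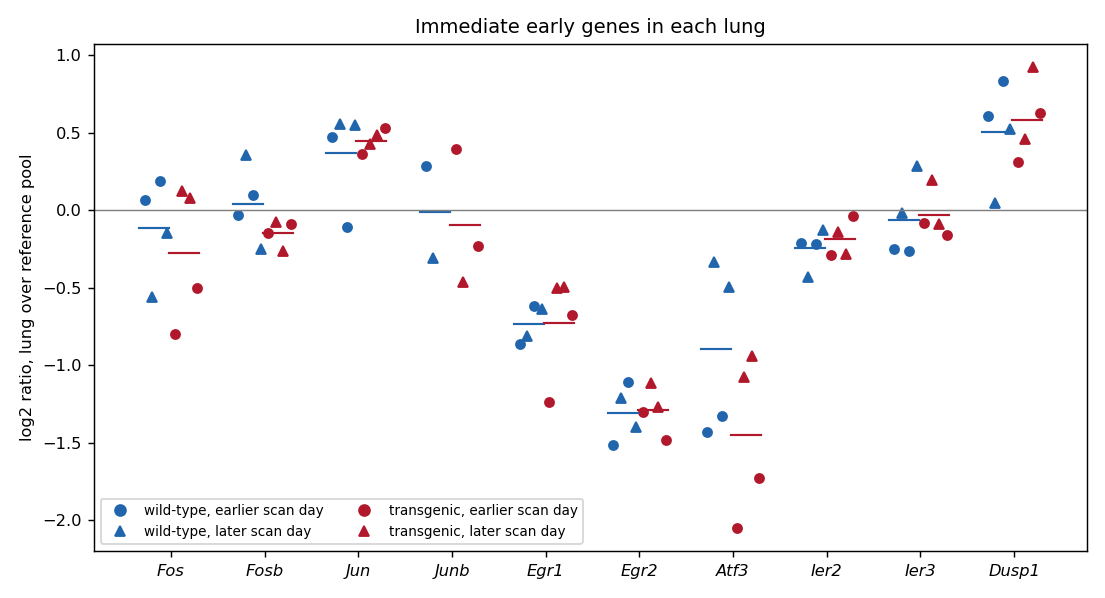
Log2 ratio of each lung over the reference pool (vertical axis) for the 10 immediate early genes (horizontal axis), by their brightest probe. Each point is 1 lung, horizontal lines are genotype means, colour is the genotype and shape the scan day. Atf3 runs from -2.05 to -0.34, with the circles of the earlier day below the triangles of the later day, while Egr2 stays between -1.51 and -1.11.

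Fos encodes the founding subunit of the AP-1 transcription factor and is the best known immediate early gene. Its log2 ratio was 0.06, -0.56, 0.19 and -0.14 in wild-type lungs 1 to 4, and -0.80, 0.13, 0.08 and -0.50 in transgenic lungs 1 to 4. Transgenic 1, wild-type 2 and transgenic 4 were low and the other 5 lungs lay near the pool, so that both genotypes held low and high lungs. The difference between genotypes was -0.16 ± 0.22 (SE, n = 4 and 4, 2-sided exact permutation p = 0.63, limma adjusted p = 1.00). The probe is dim: averaged over its 10 spots, the Cy5 signal above local background ran from 59.8 to 191 units. On the earlier scan day the transgenic mean was lower by 0.78 and on the later day it was higher by 0.45, and the 2 slides of each day gave the same sign. Thus the pooled value stood for no relation that held within both scan days. A test of genotype by scan day, chosen after these values were seen, gave a difference of 1.23 ± 0.25 (SE, limma adjusted p = 1.00), with an unadjusted p under 0.05 in 2.27% of 29502 probes.

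Fosb, a close relative of Fos that also pairs with Jun proteins, did not follow it. Fosb was at -0.03, 0.36, 0.10 and -0.25 in the wild-type lungs and at -0.15, -0.07, -0.26 and -0.09 in the transgenic lungs. All 4 transgenic lungs were slightly below the pool, and 2 wild-type lungs were above it. The difference was -0.19 ± 0.13 (SE, exact permutation p = 0.20, limma adjusted p = 1.00).

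Jun, the main partner of Fos in AP-1, was above the pool in every lung but 1. It was at 0.48, 0.56, -0.11 and 0.55 in the wild-type lungs and at 0.36, 0.42, 0.48 and 0.53 in the transgenic lungs. Wild-type 3 alone was low, and the other 7 lungs lay within a narrow band. The difference was 0.08 ± 0.15 (SE, exact permutation p = 0.94, limma adjusted p = 1.00), and without wild-type 3 it was -0.078.

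Junb, an AP-1 subunit that is a weaker activator than Jun, was measured by 2 probes that disagreed. The brighter probe had values on 5 arrays, since its spot was flagged on wild-type 3, wild-type 4 and transgenic 3, and gave 0.29 and -0.31 in the wild-type lungs and 0.40, -0.46 and -0.23 in transgenic lungs 1, 2 and 4. The other probe gave -0.79, -0.75, -0.95 and -0.33 in the wild-type and -0.56, -0.46, -0.44 and -0.88 in the transgenic lungs. It was below the pool throughout. With genotype in the fit, it was higher on the later scan day by 0.30, whereas the brighter probe was lower by 0.56. The difference between genotypes was -0.09 ± 0.27 (SE) by the brighter and 0.12 ± 0.15 by the other probe (limma adjusted p = 1.00 for both). The probe with 8 values was used for all relations between genes.

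Egr1, a zinc finger factor induced through serum response factor, was below the pool in all lungs. It was at -0.87, -0.81, -0.62 and -0.63 in the wild-type lungs and at -1.24, -0.50, -0.49 and -0.68 in the transgenic lungs. Transgenic 1 was the lowest, as for Fos, and 2 other transgenic lungs were the highest of all 8. The genotype means, -0.73 and -0.73, differed by 0.0047 ± 0.16 (SE, exact permutation p = 1.00, limma adjusted p = 1.00).

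Egr2, of the same zinc finger family and known for its part in myelination and in T cell tolerance, was the member with the lowest mean. It was at -1.51, -1.21, -1.11 and -1.39 in the wild-type lungs and at -1.30, -1.11, -1.27 and -1.48 in the transgenic lungs. The 8 lungs lay close together and the genotypes were interleaved. The difference was 0.02 ± 0.12 (SE, exact permutation p = 0.91, limma adjusted p = 1.00).

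Ier2, a small nuclear protein induced by growth factors, was the steadiest member. It ranged from -0.43 to -0.12 in the wild-type and from -0.29 to -0.04 in the transgenic lungs. Its second probe was well above background on 2 of the 8 arrays, both wild-type, and was not tested. Ier3, a stress-induced protein that modulates cell survival and ERK signalling, was at -0.25, -0.02, -0.26 and 0.28 in the wild-type lungs and at -0.08, 0.19, -0.09 and -0.16 in the transgenic lungs. The differences were 0.06 ± 0.11 for Ier2 and 0.03 ± 0.14 for Ier3 (SE, limma adjusted p = 1.00 for both).

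Dusp1 encodes the phosphatase that inactivates MAP kinases in the nucleus and so ends the signal that induces it. It was the 1 member above the pool in all 8 lungs, at 0.61, 0.05, 0.84 and 0.52 in the wild-type and at 0.31, 0.46, 0.92 and 0.63 in the transgenic lungs. Wild-type 2 was the lowest and transgenic 3 and wild-type 3 were the highest. The difference was 0.08 ± 0.18 (SE, exact permutation p = 0.74, limma adjusted p = 1.00). As for Fos, the transgenic mean was lower on the earlier scan day, by 0.25, and higher on the later day, by 0.41.

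**Figure D2:**
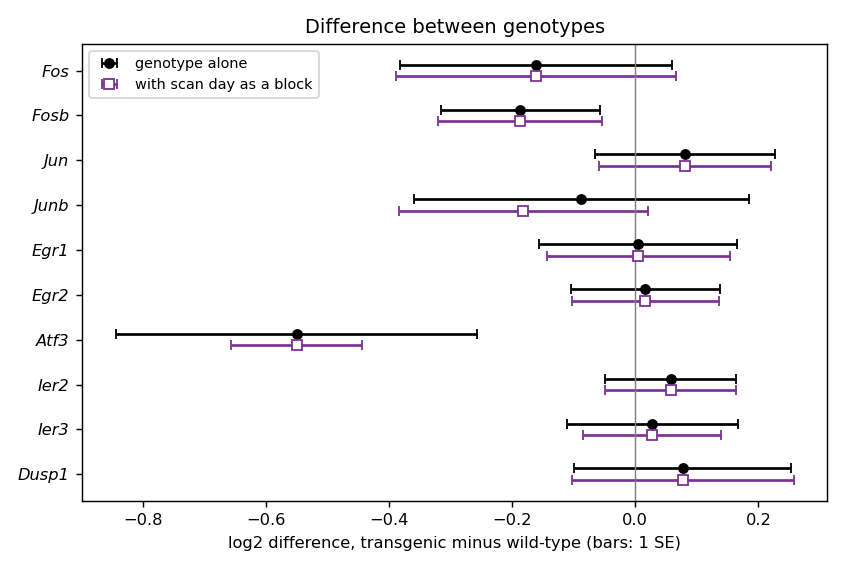
Log2 difference, transgenic minus wild-type (horizontal axis), of each immediate early gene by its brightest probe. Points are limma estimates, bars are 1 SE, black is the fit with genotype alone and open squares the fit with scan day as a block. Atf3 lies at -0.55 in both fits, with an SE of 0.29 in the first and 0.11 in the second.

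Atf3, a stress-induced repressor of the ATF/CREB family, was the member with the largest difference between genotypes and the widest spread. It was at -1.43, -0.34, -1.32 and -0.50 in wild-type lungs 1 to 4 and at -2.05, -1.07, -0.94 and -1.73 in transgenic lungs 1 to 4. The lungs of the earlier scan day lay between -2.05 and -1.32 and those of the later day between -1.07 and -0.34, with no overlap. Within each day both transgenic lungs were below both wild-type lungs. The transgenic lung was the lower on each of the 4 slides, by 0.40, 0.62, 0.74 and 0.44 on slides 1 to 4.

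Without regard to scan day, Atf3 was lower in the transgenic lungs by 0.55 ± 0.29 (SE, limma adjusted p = 1.00), which is 0.68 of the wild-type level. The 2-sided exact permutation p was 0.20, where 4 lungs against 4 cannot go below 0.029. With scan day as a block the difference was -0.55 ± 0.11 (SE, limma adjusted p = 1.00), and with slide as a block it was -0.55 ± 0.10 (SE, limma adjusted p = 1.00). With scan day as a block Atf3 was 1 of 10 members at an unadjusted p under 0.05, against 2.44% (796) of all probes, of which 0 passed after adjustment. The difference was -0.51 within the earlier and -0.59 within the later day. Leaving out 1 lung gave values from -0.73 to -0.35, the latter without transgenic 1, and without wild-type 2 it was -0.36. No fit of Atf3 between genotypes passed the adjusted threshold.

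The scan days differed by more than the genotypes in Atf3. Its mean was -1.63 ± 0.33 (SD, n = 4) on the earlier and -0.71 ± 0.35 (SD, n = 4) on the later day, a difference of 0.92 ± 0.11 (SE, limma with genotype in the fit, adjusted p = 0.041). This contrast, chosen after the values were seen, called 0.0124% of probes (4 of 32338), all higher on the later day. The other 3 were both probes of Sfn, which encodes the epithelial 14-3-3 protein stratifin, by 1.76 and 1.06, and the unnamed probe A_51_P104348, by 1.37. Scan days that did not overlap were found in 1 of the 10 members, by probes with 8 values, against 7.04% of probes. The adjusted call held under 7 of 21 settings, and it was lost without wild-type 1, 2, 3 or 4 and without transgenic 2 or 3, where the difference stayed between 0.88 and 0.96 and the adjusted p was between 0.11 and 0.40. With normexp fitted on all spots the difference was 0.37 (adjusted p = 1.00).

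In the single channels, each quantile normalized, the Cy5 level of Atf3 was 1.35 higher on the later day and the Cy3 level of the common pool was 0.39 higher, and neither overlapped between the days. The pool is the same RNA on every array, and the ratio is taken against it. Over 29502 probes the median Cy3 shift was 0.07, with 5% below -0.29 and 5% above 0.44, and the days did not overlap in 19.1% of them. Among the members the Cy3 level was higher on the later day in 9 of 10, by 0.10 in Dusp1 to 0.50 in Jun, and lower by 0.07 in Egr2. The days did not overlap in Cy3 in 5 members, Fos, Fosb, Jun, Egr1 and Atf3. What was done on which day before the scan is not given in the sources used here, and the part of array processing or of tissue collection in the difference was not tested. By the median of the members the later day was higher by 0.12, against -0.01 over all probes, and 6 of the 10 were higher on it. Egr1 was higher by 0.24 and Ier3 by 0.28, with adjusted p values of 0.60 and 0.43 by limma.

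**Figure D3:**
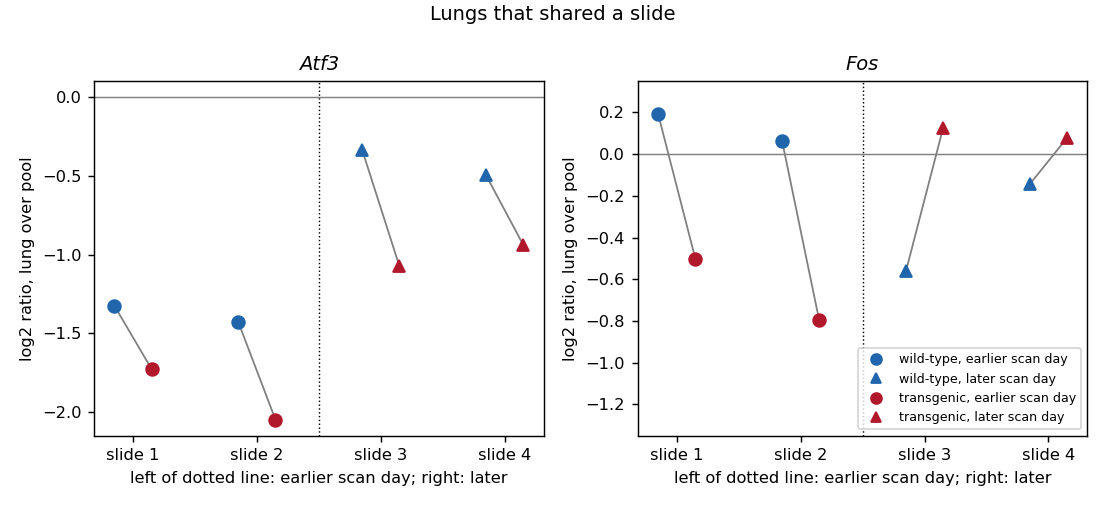
Log2 ratio over the pool (vertical axis) of Atf3 and Fos in the lungs of each slide (horizontal axis), with a line joining the wild-type and the transgenic lung of a slide. Lines for Atf3 fall on all 4 slides, by 0.40 to 0.74, and lie lower on the earlier scan day, while those for Fos fall on the 2 slides of the earlier day and rise on the 2 of the later day.

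The question of whether these genes vary together over the lungs, as signs of a shared tissue response would, was asked with Fos as the reference. The correlation of Fos with the other 9 members over the 8 lungs had a median Pearson r of 0.25, against -0.0038 over all 29501 other probes, and 6 of the 9 were above 0. The median fell to 0.13 without transgenic 1, to 0.12 without transgenic 2 and to 0.13 without transgenic 4. Egr1 followed Fos most closely, with r = 0.73 (exact permutation p = 0.024, adjusted p = 1.00 over all probes, Spearman rho = 0.76, exact p = 0.037, adjusted p = 1.00). It was the 1 member of 9 with p under 0.05, against 3.98% (1174) of all probes. Without transgenic 1 and wild-type 2, the lungs farthest from the median of Fos, r fell to 0.22. Without transgenic 1 and wild-type 1, the lungs farthest from the median of Egr1, it was 0.83. Leaving out the extremes of a gene narrows its range, so these values do not settle which lungs carry the relation. Over all 8 lungs r was 0.76 with values centred on genotype and 0.76 with values centred on scan day.

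Dusp1 came next, with r = 0.68 (exact permutation p = 0.067, adjusted p = 1.00, rho = 0.62, exact p = 0.11, adjusted p = 1.00), which was 0.75 within scan days. It fell to 0.27 without transgenic 1 and wild-type 2, and was 0.61 without wild-type 2 and transgenic 3, the lungs farthest in Dusp1. Fosb and Jun, by contrast, had r = -0.17 (exact p = 0.70, rho = 0.10, exact p = 0.84) and r = -0.37 (exact p = 0.40, rho = -0.45, exact p = 0.27). For Atf3 r was 0.26 (exact p = 0.53, rho = 0.17, exact p = 0.70), for Ier2 0.25 and for Egr2 0.26. For Junb r was 0.06 and for Ier3 -0.02. The adjusted p of all of these was 1.00.

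Over all 45 pairs of members the median r was 0.15, with 27 pairs above 0 and 18 below, and 2 pairs had an exact permutation p under 0.05. Taking each member against all other probes, 6.05% had such a p, from 2.16% for Ier2 to 12.6% for Egr1. The other such pair was Junb with Ier3, at r = 0.81 (exact permutation p = 0.013, against 9.0% of all probes with a p under 0.05, adjusted p = 0.52 over all probes against Junb, rho = 0.81, exact p = 0.022, adjusted p = 0.55). It was 0.61 without the 2 lungs farthest from the median of Junb and 0.60 with values centred on scan day. These values are of the dimmer Junb probe, which has 8 values. By the brighter probe, with values on 5 arrays, the lungs ran otherwise. Transgenic 2, its lowest lung at -0.46, was the highest of those 5 in Ier3, at 0.19. Wild-type 1, at 0.29 by that probe, was the lowest of them in Ier3, at -0.25. An r was not taken for the brighter probe. The lowest r was -0.63, between Fosb and Junb. With values centred on scan day the median over the 45 pairs was -0.10. Values above 0.5 were found in 6 pairs, the others being Atf3 with Ier3 at 0.55, Egr1 with Dusp1 at 0.54 and Egr1 with Atf3 at 0.51, and Fos with Dusp1 as above. The median r with Fos was 0.52 in the Cy5 channel alone, without division by the pool, and the difference from 0.25 was not tested. No median over all probes is given for that channel. On the later scan day 9 members were higher in Cy5, and 9 were higher in the Cy3 of the common pool. Such shifts are not divided out in Cy5 alone, and their part in the 0.52 was not tested.

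**Figure D4:**
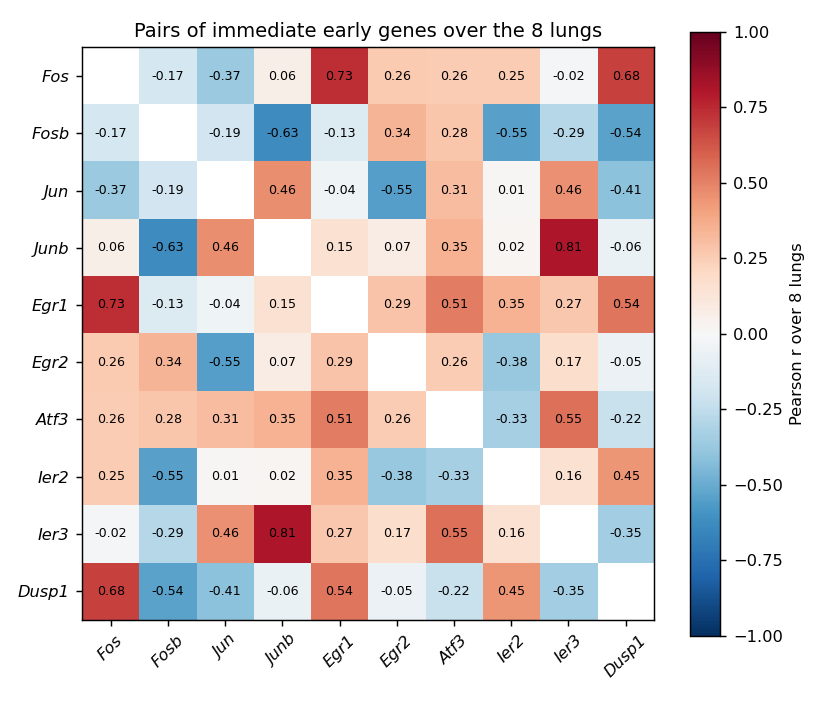
Pearson r over the 8 lungs for each pair of immediate early genes, by the probe with values on all arrays, with red above 0 and blue below 0 and the value printed in each cell. Fos with Egr1 reads 0.73, Fos with Dusp1 0.68 and Junb with Ier3 0.81, while Fosb is at or below -0.54 with Junb, Ier2 and Dusp1.

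Among 1506 named probes that were well above background on all arrays and spanned at least 1 log2 unit, the 10 genes with the highest r were Cox6a2, Tnni3, Actn2, Sln, Ttn, Secisbp2l, Nppa, Ckmt2, Csrp3 and Mybphl, at r of 0.87 to 0.79. Probes outside this filter were not ranked, and over all probes the smallest exact permutation p with Fos was 0.00017. Tnni3, Nppa and Sln belong to the listed heart muscle markers. Tnni3 is cardiac troponin I, Nppa the atrial natriuretic peptide and Sln sarcolipin, the calcium pump regulator of atrial muscle. Ttn, Actn2 and Csrp3 encode structural proteins of the striated muscle sarcomere, and Ckmt2 and Cox6a2 mitochondrial proteins of such muscle. Secisbp2l, by contrast, encodes a relative of a selenoprotein synthesis factor. Heart muscle sheathes the pulmonary veins of the mouse, and the heart lies against the lung at dissection. For Tnni3, r was 0.87 (exact permutation p = 0.0032, rho = 0.86, exact p = 0.011) and 0.83 without the 2 lungs farthest in Fos. For Sln it was 0.83 (exact permutation p = 0.0078, rho = 0.83, exact p = 0.015), and 0.93 without those lungs. By rank the relation was weaker for Mybphl (rho = 0.48, exact permutation p = 0.24) and Nppa (rho = 0.67, exact permutation p = 0.083). Their r was 0.67 and 0.87 without those lungs. All adjusted p values were 1.00 over 29501 probes, and the likeness is given as a description.

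The 6 of 7 heart muscle markers that could be tested were well above background on all 8 arrays. Myh6 had no value in wild-type 2, so levels were taken over the other 5, Myl4, Nppa, Tnnt2, Tnni3 and Sln. Their mean log2 ratio was 0.74, 0.48, 1.03 and 0.30 in the wild-type lungs and -0.42, 0.54, 0.62 and 0.0087 in the transgenic lungs. By this mean transgenic 1 was lowest and wild-type 3 highest, as in Fos. Other lists were taken alike, over genes with values on all arrays. T and NK cell, B cell and fibroblast means showed the reverse, with transgenic 1 highest and wild-type 3 lowest. Airway, neutrophil and smooth muscle means were also highest in transgenic 1. Macrophage, adipocyte, erythroid and platelet means had neither lung as an extreme. The log ratios of transgenic 1 and wild-type 3 had the widest SDs over probes, at 0.54 and 0.51. The mean of the 4 skeletal muscle markers with values on all arrays was lowest in transgenic 1, at -0.16, and highest in wild-type 3, at 0.42. Singly this held for Ckm and Myh4. In Mylpf and Tnnt3 wild-type 3 lay below the pool, at -0.19 and -0.07, and in Tnnt3 transgenic 1 lay above it, at 0.12. Acta1, with no value in transgenic 3, was highest in transgenic 1, at -0.51. Tnni3, Nppa and Sln were among the genes ranked highest by r with Fos, so the parallel is not independent of that ranking. Wild-type 2 broke the parallel, being the second lowest lung in Fos, with 3 lungs below it and 4 above it in the heart muscle markers. All 6 tested heart muscle markers had a lower transgenic mean, with a median of -0.49. By limma 2 of them had an unadjusted p under 0.05, against 2.09% of all probes tested, and 0 an adjusted one. Of the type II markers 2, Sftpa1 and Abca3, had values on all arrays, and their mean was highest in wild-type 3, at 1.04, and lowest in transgenic 4, at 0.0018. These 2 differed, since transgenic 1 was the lowest lung in Sftpa1, at -0.24, and the highest in Abca3, at 0.51. Of the markers with missing values, Sftpc, Sftpb and Lamp3 were lowest in transgenic 1, at 0.79, -0.26 and -1.90. Slc34a2 was lowest in wild-type 4, at -0.59. Wild-type 3 was highest in Sftpc, Sftpb and Slc34a2 and had no value in Lamp3. The part of cell makeup in the spread of Fos was not tested, and in whole lung fewer cells of a type and less RNA per cell cannot be told apart. Of the genes that ran most against Fos, Theg, Cnrip1, Ip6k1 and Ccdc88c had r from -0.81 to -0.77, and these 4 were highest in transgenic 1. Without transgenic 1 and wild-type 2, r was -0.23 for Theg, -0.79 for Cnrip1, -0.33 for Ip6k1 and -0.27 for Ccdc88c.

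**Figure D5:**
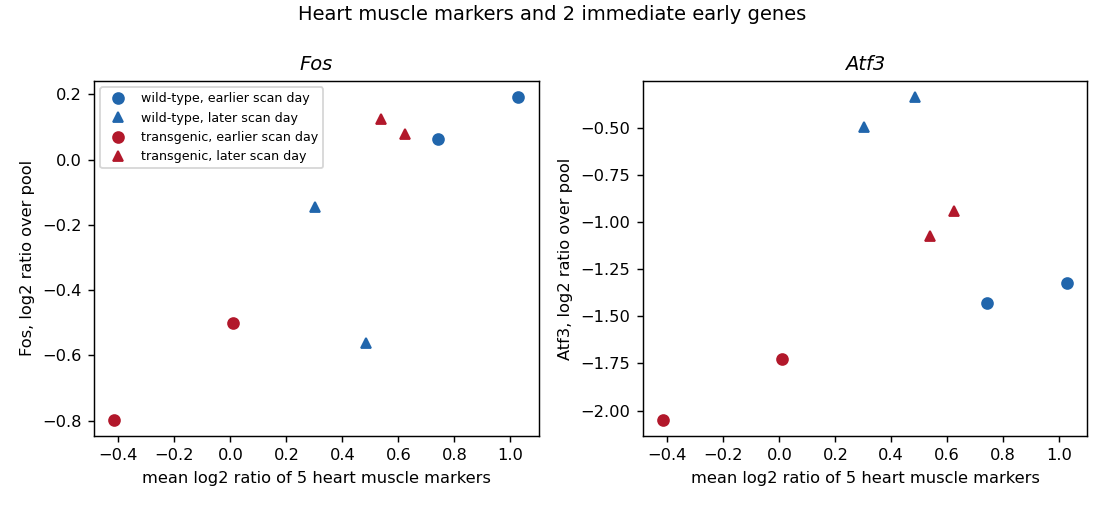
Mean log2 ratio of 5 heart muscle markers with values on all arrays (horizontal axis) against the log2 ratio of Fos and of Atf3 (vertical axes) in the 8 lungs, with colour for genotype and shape for scan day. Transgenic 1 is lowest on both axes for both genes. Wild-type 2 lies apart for Fos, and for Atf3 the circles of the earlier day lie below the triangles.

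Of 21 other immediate early transcription factors listed, 19 could be tested, with 7 means higher and 12 lower in the transgenic lungs and a median difference of -0.09. By limma 1 had an unadjusted p under 0.05, against 2.09% of all probes tested, and 0 an adjusted one. This was Nfil3, a basic leucine zipper factor of circadian and immune regulation, at -0.65, -0.71, -0.79 and -0.95 in the wild-type and -1.42, -1.01, -1.05 and -1.48 in the transgenic lungs. The genotypes did not overlap, as in 1.46% of probes with 8 values, and the difference was -0.46 ± 0.13 (SE, limma adjusted p = 1.00). Fosl1, the Fos relative with the widest spread, had an SD of 0.51 and was 0.76 higher on the later scan day (limma, adjusted p = 0.32). Fosl2 with an SD of 0.43 and Klf10 with 0.36 followed, at differences of -0.07 and -0.18 between genotypes. Bhlhe40, a clock repressor with values on 6 arrays, was at 0.22 ± 0.16 (SE).

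Of 36 immediate early effectors, such as phosphatases, growth arrest proteins and chemokines, 29 could be tested. Their means were higher in 18 and lower in 11, with a median difference of 0.06. By limma an unadjusted p under 0.05 was found for 2, against 2.09% of all probes tested, and an adjusted one for 0. Gadd45g, a stress sensor that activates p38 and JNK, was at -0.50 ± 0.19 (SE, limma adjusted p = 1.00). It was high in wild-type 1 and 2, at 0.42 and 0.37, and between -0.60 and -0.27 in the other 6 lungs. Plk2, a kinase of centriole duplication, was at 0.38 ± 0.17 (SE, limma adjusted p = 1.00). Dusp4, a nuclear phosphatase related to Dusp1, was at 0.35 ± 0.19. The chemokine genes Ccl2, with an SD of 0.42, and Cxcl1, with 0.37, spread widely over the lungs at differences of -0.11 and -0.19.

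The kinases and factors that act before these genes were steadier. All 23 could be tested, with a median SD of 0.13, 13 means higher and 10 lower, and a median difference of 0.01. None had an unadjusted p under 0.05 by limma, against 2.09% of all probes tested. Among the ternary complex factors Elk4, Elk3 and Elk1 had the widest spreads, with SDs of 0.28, 0.27 and 0.23. Elk3 was at 0.27 ± 0.15 (SE) and Elk1 at 0.19 ± 0.14, and the kinase gene Rps6ka5 was at 0.15 ± 0.13.

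Heat shock genes, which respond to protein damage and often rise with immediate early genes in stressed tissue, had mostly lower transgenic means. Of 13 listed, 10 could be tested, and 9 had a lower transgenic mean, with a median of -0.37. By limma 5 had an unadjusted p under 0.05, against 2.09% of all probes tested, and 0 an adjusted one. The 5 were Hspa8, Hspb1, Dnajb1, Dnaja1 and Hspd1. Without transgenic 1 the count fell to 2 of 10, and without wild-type 2 or 4 to 2 of 9, whereas without transgenic 3 it was 8 of 10. Hspa1a, the inducible Hsp70, had the widest spread (SD 0.72). It was at -0.40, 1.01, 0.30 and 0.38 in the wild-type and at -1.24, -0.74, 0.39 and 0.10 in the transgenic lungs. Its sequence is nearly that of Hspa1b, and a probe may read both. Dnaja1, an Hsp40 co-chaperone, was at -0.59 ± 0.19 (SE, limma adjusted p = 1.00), with all transgenic lungs between -1.11 and -0.13 and the wild-type lungs between -0.07 and 0.28. Hspa8, the constitutive Hsc70, was at -0.89 ± 0.29 (SE) with values on 5 arrays, and Hspb1, the small heat shock protein Hsp27, at -0.59 ± 0.24. Over the 6 genes with values on all arrays, transgenic 1 had the lowest mean, at -0.65, as it was in Fos, Egr1 and Atf3, and wild-type 2, low in Fos, had the highest, at 0.53.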

How the data were processed

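Lung RNA of 8 mice was measured on 8 arrays. The authors labelled each mouse with Cy5 and a pool of all samples with Cy3, and deposited Agilent Feature Extraction files (10.10.1.1 in the file headers, 11.0.1.1 in the submitters' processing notes) with spot intensity for both dyes. They also deposited an annotated matrix of log2 ratios, used here for gene symbols and as an alternative. For 34975 of 39811 probes with 1 spot it held the file's log ratio on the log2 scale within 0.001, and its column medians ran from -0.05 to 0.04. The labels name miRNeasy and the study's methods RNeasy for extraction.

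The deposited files also hold Agilent's log10 ratio of processed signals, which served as an alternative on the log2 scale. Median intensities were corrected by normexp (offset 50) and normalized within arrays by loess in limma 3.58.1 under R 4.3.3. Control spots and spots flagged as outliers in either dye were left out. Spots with an outlying local background were added to these after the values were seen, because they drew the normexp fit of some arrays. Spots of a probe were averaged. Probes well above background in Cy5 on 4 or more of 8 arrays, with 2 or more values in each genotype, were tested by limma, transgenic minus wild-type, with Benjamini-Hochberg adjustment. A gene was represented by its tested probe of highest mean intensity. Probes that the matrix does not name took a symbol from the RefSeq table by accession (933 probes, beside 33870 named by the matrix). Correlations with Fos used all 40320 orders of the 8 lungs, 2-sided, over probes with 8 values. Every lung had its own array, so permutation and limma p-values measure the spread between mice together with that between arrays. These 2 parts cannot be told apart. Fits with a block measure the spread that is left within scan days, slides or replicate numbers. The number of arrays limits the precision.

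Members and gene lists were chosen with earlier results of these data known. Named beside the 10 members were, from each list, the 3 tested genes of widest spread and the 3 of largest difference, and the 10 genes most and 5 least like Fos, of which 1 of the latter is not reported here; Sfn, A_51_P104348, Hspb1, Dnajb1 and Hspd1 were named after their values were seen. Tests were checked on simulated data. Other settings tried were 30 chosen at the outset and 1 chosen after the values were seen.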

Additional observations from a re-analysis of the deposited data

Results flagged for a closer look

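Among the 20 sets of 4 values (10 genes in 2 genotypes, by the probe with 8 values), Jun in the wild-type lungs held 1 value far from the rest. Wild-type 3 was at -0.11 and the nearest of the others at 0.48, a gap that made up 0.875 of the range of the group, above Dixon's 95% critical value for 4 values. Chance alone is thought to place about 1 in 20 such groups above the limit.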

How the results depend on the processing

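The count of probes past the adjusted threshold between genotypes stayed at 0 under all 27 settings tried, with 301 to 1283 probes at an unadjusted p under 0.05 against 683; the methods' t-test gave 864 at its threshold and 0 after Benjamini-Hochberg adjustment. The median difference of the members stayed between -0.08 and 0.05 and the median r with Fos between 0.12 and 0.52. The median SD moved to 0.40 in the sample channel alone. It was 0.13 with values centred on slide and 0.14 with values centred on replicate number, where centring pairs of lungs takes out variation by construction.

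Atf3 was lower in the transgenic lungs in all 28 settings, of which many leave its estimate at -0.55 by construction and could not turn it. Its unadjusted p fell under 0.05 in 7: under median-centring (-0.63), with the slide, the scan day and the replicate block, and without wild-type 1 (-0.73), wild-type 3 (-0.69) or transgenic 3 (-0.72). Leaving out 1 lung gave -0.73 to -0.35 in all. With the replicate block Atf3 was at -0.55, 0 probes passed after adjustment and 885 had an unadjusted p under 0.05. Same numbers do not pair the lungs: the correlation of deviations was 0.32, 0.25, -0.08 and -0.21 for numbers 1 to 4. Lungs 1 and lungs 2 share a slide, while lungs 3 and lungs 4 do not. The scan day difference of Atf3 lost its adjusted call with normexp offset 0 (1.15), plain subtraction (1.16), normexp on all spots (0.37), median-centring (0.89), processed signals and the authors' matrix (1.09 each), the filter on all 8 arrays (0.92) and flags of the spot alone (0.36, chosen after seeing the data); leaving out 1 lung gave 0.86 to 0.99.

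Differences near 0 changed sign. Egr1 was at -0.014 with offset 0, -0.020 with subtraction, -0.072 under median-centring and -0.10 in the sample channel. Median-centring turned Jun (-0.020), Egr2 (-0.068), Ier2 (-0.022), Ier3 (-0.068) and Dusp1 (-0.0086), and the sample channel alone Ier2 (-0.051) and Dusp1 (-0.044). Ier3 was at -0.044 with normexp on all spots and -0.043 with flags of the spot alone, Fos at 0.13 with array weights and Junb at 0.13 as the mean of its probes. Leaving out 1 lung gave -0.31 to 0.013 for Fos, -0.078 to 0.14 for Jun, -0.33 to 0.11 for Junb, -0.073 to 0.17 for Egr1, -0.052 to 0.082 for Egr2, -0.0039 to 0.097 for Ier2, -0.048 to 0.14 for Ier3 and -0.075 to 0.19 for Dusp1. The cause of these changes was not tested. Fosb kept its sign throughout and had an unadjusted p under 0.05 in 1 setting, without wild-type replicate 4 (-0.28). Dim probes limit precision: Fos lay 59.8 to 191 units above background in Cy5. Other members were dim as well, with Egr2 at 111 to 202 units, Egr1 at 102.5 to 278.5 and Fosb at 118 to 355. Atf3 ran from 87 units in transgenic 1 to 858 in wild-type 2.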
